A study of Mus musculus with 6 samples.

Results

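The genes of the mitochondrial respiratory chain were followed in OP9, a stromal cell line from mouse bone marrow that supports blood and lymphoid progenitors in culture. A gene was a member when the single symbol annotated to its probe sets, or the current symbol behind an older one, began with Nduf, with Sdh and then a, b, c or d, with Uqcr, with Cox4 to Cox8, or with Atp5. The rule used no measured value and took 99 of 22296 symbols. They comprised 84 subunits of complexes I to V, 12 assembly factors (the Ndufaf and Sdhaf genes) and 3 genes that matched through an older name only.

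Total RNA was hybridised to 6 Affymetrix mouse exon arrays. The 3 Smo shRNA arrays held RNA of an OP9 line stably transduced with a hairpin against Smoothened (Smo), the membrane protein through which Hedgehog ligands signal. The 3 control shRNA arrays held RNA of a line stably transduced with a scrambled hairpin, and both hairpins were carried by the pLKO.1-Puro lentivirus. RNA was taken in triplicate from each line. The labels name no separate transductions or cultures behind the triplicates, and every p-value rests on the spread among them, which may be technical. Each hairpin was carried by a single line, so hairpin and line cannot be told apart. In bulk RNA, fewer cells of a type and less RNA per cell cannot be told apart either.

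The respiratory chain of the inner mitochondrial membrane passes electrons taken from NADH and succinate to oxygen. Complex I (NADH dehydrogenase), complex III (the cytochrome bc1 complex) and complex IV (cytochrome c oxidase) pump protons as the electrons pass, complex II (succinate dehydrogenase) feeds electrons in from the citrate cycle, and complex V (ATP synthase) uses the proton gradient to make ATP. Most subunits are encoded in the nucleus and a small number in mitochondrial DNA, and dedicated assembly factors help to build each complex without remaining in it.

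Levels are given per array on the log2 scale, each gene joined from its exon probe sets, and a difference is Smo shRNA minus control shRNA. Smo itself stood at 11.32, 11.36 and 11.44 in Smo shRNA cells, against 12.29, 12.22 and 12.24 in control shRNA cells. It was 1.83-fold lower (difference -0.88, SE 0.04, limma adjusted p = 1.22e-09), and all 26 of its probe sets were on the lower side. Array values correlated at 0.9961 to 0.9979 within a line and at 0.9787 to 0.9808 between lines across genes, which are not independent replicates. All 10 stromal markers were tested, among them collagens and Cxcl12. Of these, 8 fell, and the log2 of their summed level was 15.57 to 15.64 in Smo shRNA cells and 15.87 to 15.90 in control shRNA cells. Of 11 tested adipocyte markers, 8 fell and 1 rose, with a log2 summed level of 13.99 to 14.02 in Smo shRNA cells and 14.53 to 14.58 in control shRNA cells. Beside these counts, 17.4% of all genes fell and 21.2% rose. The 8 tested blood cell and 8 tested endothelial markers had mean levels of 7.09 to 8.36, not far above the 6.56 that was the median of all probe sets, and none passed. The part of the adipocyte and stromal markers in the results on the respiratory chain was not tested.

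One array stood apart among the members. In Smo shRNA array 3, 215 probe sets of the whole array lay more than 1.5 above both other Smo shRNA arrays, where the same count was 0 to 5 in each of the other 5 arrays. Among genes, Rps27, a ribosomal protein gene, read 7.64, 8.27 and 10.44 in Smo shRNA cells, against 8.32, 8.36 and 8.37 in control shRNA cells. The array read more than 0.25 above the mean of the other 2 for 8 of 91 tested members (8.79%), against 2.08% of all genes. These were Ndufa5 (0.65), Sdhaf1 (0.53), Ndufs5 (0.44), Atp5h (0.37), Ndufb3 (0.35), Uqcr11 (0.34), Uqcrfs1 (0.32) and Ndufa4 (0.29). In the opposite direction it read 0.27 below for Ndufv1 and 0.32 below for Cox8b. Control shRNA array 2 held the lowest of the 3 control values for 72 of 91 members (79.1%), against 54.4% of all genes. Called members whose difference moved by over 1.5 times without any 1 of the 6 arrays are given with that value too.

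**Figure D1:**
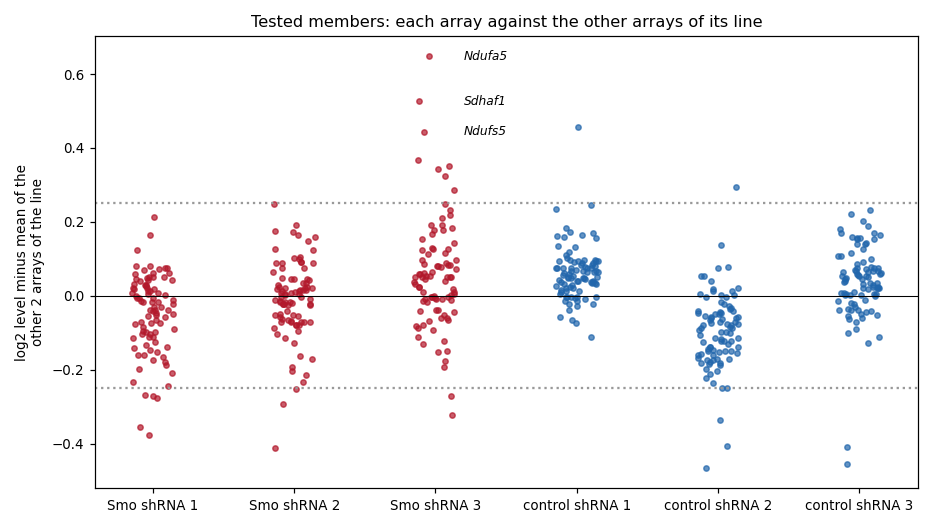
Each point is 1 of the 91 tested members; the vertical axis gives its log2 level in an array minus the mean of the other 2 arrays of the same line, for the 3 Smo shRNA arrays (red) and the 3 control shRNA arrays (blue), with dotted lines at 0.25 on either side of 0. Smo shRNA array 3 holds 8 members above the upper line, led by Ndufa5, and most points of control shRNA array 2 lie below 0.

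Most respiratory chain genes differed little between the lines, and those that passed the test went both ways. Of the 91 members with at least 3 usable probe sets, 20 rose, 13 fell and 58 did not pass in Smo shRNA cells (limma, Benjamini-Hochberg adjusted p under 0.05 over 16923 genes). That is 36.3% of the members, beside 38.6% of all genes, of which 21.2% rose and 17.4% fell. The 76 tested subunits held 14 that rose and 10 that fell (31.6%). The median difference of the members was 0.03 with quartiles of -0.09 and 0.14 (medians without control shRNA array 2 and without Smo shRNA array 3 were both 0.00), and that of all genes was 0.01 with quartiles of -0.10 and 0.13. The arrays of the 2 lines did not overlap for 38 of 91 members, beside 47.8% of all genes.

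The sizes were small. At 1.5-fold or more, 3 of 91 members were called, namely Atp5c1 lower and Sdhaf3 and Ndufaf6 higher, beside 6.02% of all genes. At 1.25-fold or more, 9 were called, beside 17.9% of all genes. The 95% interval of the difference lay wholly within 1.25-fold in either direction for 62 of 76 subunits (81.6%), and for 64.7% of all genes. The subunits were brighter than all genes by median level and had a smaller median SE (0.054 against 0.067), which makes intervals narrower. Genes of matched level were not compared, so the gap between these shares is not shown to be a trait of the chain. Of the 793 usable probe sets of members, 124 were higher and 54 lower at the threshold (22.4%), beside 30% of all usable probe sets.

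**Figure D2:**
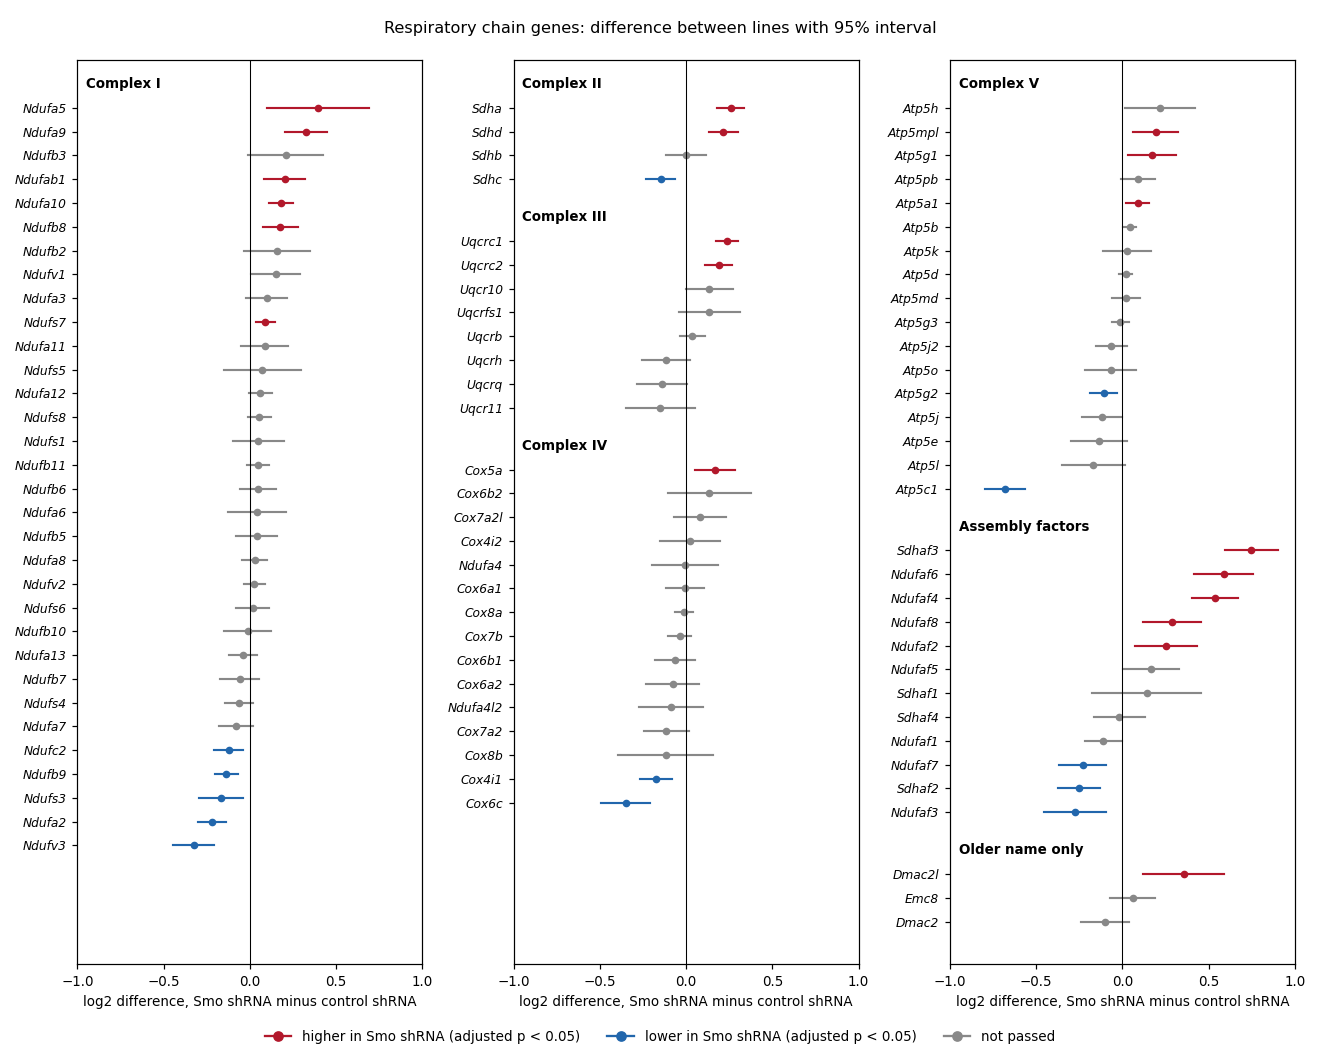
Points give the log2 difference (Smo shRNA minus control shRNA) of each of the 91 tested members and bars its 95% interval, ordered within complexes I to V, the assembly factors and the genes matched by an older name; red marks 20 members that rose, blue 13 that fell and grey 58 that did not pass. Most intervals lie close to 0, and Atp5c1, Sdhaf3, Ndufaf6 and Ndufaf4 lie farthest from it.

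The counts depended on single arrays. Without control shRNA array 1, 2 or 3, the members that rose numbered 12, 11 and 11, and those that fell 5, 12 and 6. Without Smo shRNA array 1, 2 or 3, 11, 10 and 12 rose and 8, 9 and 10 fell. Over all genes, such fits gave 2672 to 2918 higher and 2089 to 2786 lower, against 3594 and 2943 with all arrays. Of the 33 called members, 12 kept their call under every alternative setting that could be run, these 6 fits included (14 settings, 12 for Sdhaf3). They were Ndufa9, Ndufa10, Sdha, Uqcrc1, Uqcrc2, Sdhaf3, Ndufaf4 and Ndufaf6 on the higher side and Ndufv3, Ndufa2, Ndufb9 and Atp5c1 on the lower side.

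**Figure D3:**
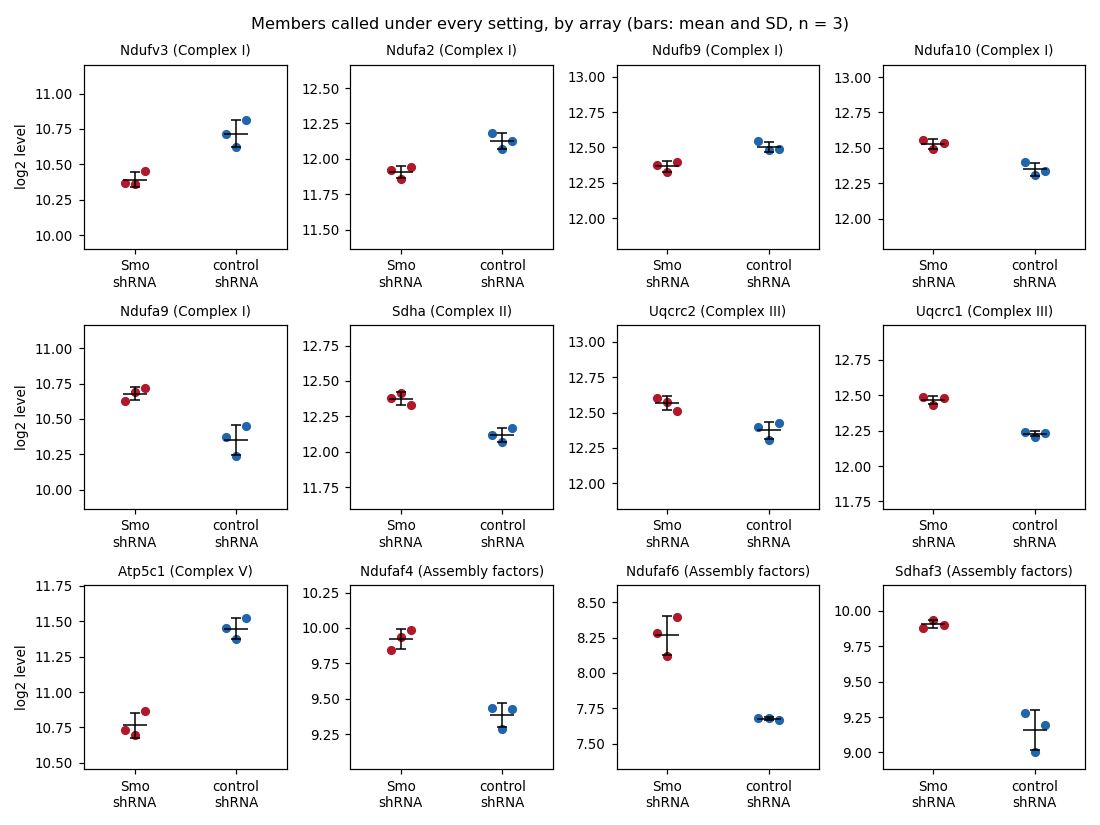
Log2 level in each array of the 12 members called under every setting, with Smo shRNA (red, left) and control shRNA (blue, right) arrays in each panel, a horizontal tick at the mean and a bar of 1 SD (n = 3 each); every panel spans the same width on the log2 axis. The arrays of the 2 lines do not overlap in any of the 12 panels, with the widest gaps in Sdhaf3 and Atp5c1. The panels were chosen by their calls, so this is no separate result, and 47.8% of all genes show no overlap.

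The promoters of the members were searched for shared letters. Windows of 250 bases before to 50 bases after the annotated start were available from RefSeq (GRCm38.p6) for 81 of the 99 members, 87 windows in all. They were searched on both strands for GCGC followed by any base and TGCGC, the core of the site bound by nuclear respiratory factor 1 (NRF1), a regulator of nuclear genes for mitochondrial proteins. The letters were found in 25.3% of the members' windows, in 4.6% of all 32851 windows and in 6.38% of those of protein-coding genes. The letters CCGGAAGT, a core of ETS factor sites, were in 5.75% of the members' windows and 5.15% of those of protein-coding genes, and AAGATGGC, a core of YY1 sites, was in 14.9% of the members' windows and 3.05% of those of protein-coding genes. None of the 3 motifs is contained in another. Median GC content was 58.7% in the members' windows and 56.3% in those of protein-coding genes. A match is a run of letters, not a shown binding site. Of 20 tested members with the NRF1 letters, 6 rose, 2 fell and 12 did not pass, and of 55 without them 10 rose, 6 fell and 39 did not pass. Of the 12 members called under every setting, 8 had a window, and 5 windows that were eligible for printing held the NRF1 letters. Eligibility was set by chromosome and not by direction. A member on the lower side was left out by it, so 5 is not a count of all matches among the 8. Those 5 are printed 5′ to 3′ along the gene's own strand, with each match in capitals.
Atp5c1, chr2:10080383-10080682, minus strand: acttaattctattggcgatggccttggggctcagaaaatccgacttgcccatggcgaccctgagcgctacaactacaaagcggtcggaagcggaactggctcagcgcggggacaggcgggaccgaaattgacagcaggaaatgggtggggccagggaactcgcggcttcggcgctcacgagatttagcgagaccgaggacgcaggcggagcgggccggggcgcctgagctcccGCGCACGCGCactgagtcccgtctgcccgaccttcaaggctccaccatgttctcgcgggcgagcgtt
Sdha, chr13:74350191-74350490, minus strand: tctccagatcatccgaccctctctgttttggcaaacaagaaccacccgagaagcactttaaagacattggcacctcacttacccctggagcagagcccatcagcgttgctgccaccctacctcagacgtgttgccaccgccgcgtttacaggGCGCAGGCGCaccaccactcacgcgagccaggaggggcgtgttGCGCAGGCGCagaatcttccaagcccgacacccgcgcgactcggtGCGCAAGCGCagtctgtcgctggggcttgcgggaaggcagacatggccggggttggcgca
Uqcrc1, chr9:108936398-108936697, plus strand: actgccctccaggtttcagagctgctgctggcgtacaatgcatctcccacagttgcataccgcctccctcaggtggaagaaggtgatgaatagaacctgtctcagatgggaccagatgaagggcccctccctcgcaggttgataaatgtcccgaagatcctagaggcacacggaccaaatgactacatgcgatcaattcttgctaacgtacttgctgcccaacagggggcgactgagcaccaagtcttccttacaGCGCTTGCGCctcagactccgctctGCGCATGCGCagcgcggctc
Sdhaf3, chr6:6955768-6956067, plus strand: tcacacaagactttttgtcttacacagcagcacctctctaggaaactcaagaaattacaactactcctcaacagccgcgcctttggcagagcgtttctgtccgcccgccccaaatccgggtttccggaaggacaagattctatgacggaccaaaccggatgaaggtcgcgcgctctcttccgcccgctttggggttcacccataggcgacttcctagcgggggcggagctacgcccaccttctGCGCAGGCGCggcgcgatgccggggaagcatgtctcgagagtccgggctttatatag
Ndufaf4, chr4:24897833-24898132, plus strand: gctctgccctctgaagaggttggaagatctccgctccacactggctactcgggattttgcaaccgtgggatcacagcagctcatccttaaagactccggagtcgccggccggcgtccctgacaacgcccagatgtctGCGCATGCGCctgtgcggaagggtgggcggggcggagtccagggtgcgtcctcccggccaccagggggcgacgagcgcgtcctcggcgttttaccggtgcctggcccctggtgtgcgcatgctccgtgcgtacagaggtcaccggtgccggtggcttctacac
Sdha carries 3 matches and Uqcrc1 2, and the other 3 windows 1 each. Among the 5 printed windows, that of Atp5c1 belongs to a gene that fell and the other 4 to genes that rose. The letters thus occur in windows of genes of both directions, but these 5 do not give the share of either direction. Both Uqcrc1 matches lie after the annotated start.

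In complex I, small changes went in both directions, and the share called was not above that of all genes. Of 36 members, 32 were tested, of which 6 rose, 5 fell and 21 did not pass, with a median difference of 0.05, or 0.01 without control shRNA array 2. The calls made up 34.4% of those tested, beside 38.6% of all genes, and 5 of the 11 were kept under every setting. The matrix arm, which takes electrons from NADH and hands them to ubiquinone, held 3 higher and 3 lower of 15 members. The membrane arm, which holds the proton-pumping part, held 2 higher and 2 lower of 16 tested members. Ndufab1, the acyl carrier protein found in both arms, was called higher. In the other complexes the share called was 75% of 4 tested members in II, 25% of 8 in III, 20% of 15 in IV and 29.4% of 17 in V.

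Of the 6 tested core subunits, which carry out the electron transfer, 1 was called in each direction. Ndufs1, a large subunit with iron-sulfur clusters, stood at 10.05, 10.23 and 10.09 in Smo shRNA cells, against 10.10, 9.94 and 10.18 in control shRNA cells. The arrays overlapped, and the difference of 0.05 did not pass (SE 0.07, limma adjusted p = 0.654). Ndufv1, which binds NADH and its flavin cofactor, stood at 11.89, 11.91 and 11.63 in Smo shRNA cells, against 11.72, 11.56 and 11.70 in control shRNA cells. Smo shRNA array 3 fell among the control arrays. The Ndufv1 difference was 0.15 (SE 0.07, limma adjusted p = 0.0971) with all arrays and 0.21 without Smo shRNA array 3 (adjusted p = 0.0246). Ndufs7, which holds the last iron-sulfur cluster before ubiquinone, was called higher (0.09, limma adjusted p = 0.00974) and its neighbour Ndufs3 lower (-0.17, limma adjusted p = 0.0372). Each of these calls was lost in at least 5 of the 6 fits without 1 array. The Ndufs7 difference was 0.05 without Smo shRNA array 1, and the Ndufs3 difference was -0.09 without that array and -0.10 without control shRNA array 3. With the mean of probe sets in place of median polish, Ndufs7 was at 0.06 (limma adjusted p = 0.113).

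Among the accessory subunits of complex I, which surround the core, Ndufa9 had the smallest adjusted p on the higher side. It binds a nicotinamide cofactor beside the site of ubiquinone reduction. Its level was 10.63, 10.69 and 10.72 in Smo shRNA cells, against 10.37, 10.24 and 10.45 in control shRNA cells. All 3 Smo shRNA arrays were above all 3 control arrays (difference 0.33, SE 0.06, limma adjusted p = 0.000397). All 10 of its probe sets were on the higher side and 9 passed on their own.

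Ndufa10, an accessory subunit of the membrane arm with the fold of a nucleoside kinase, stood at 12.56, 12.49 and 12.53 in Smo shRNA cells, against 12.40, 12.31 and 12.34 in control shRNA cells. The groups did not overlap, and all 13 probe sets pointed the same way (difference 0.18, SE 0.03, limma adjusted p = 0.000466). Ndufb8, also of the membrane arm, stood at 11.57, 11.60 and 11.67 in Smo shRNA cells, against 11.46, 11.34 and 11.50 in control shRNA cells. Its arrays did not overlap (difference 0.18, SE 0.05, limma adjusted p = 0.00723), but the Ndufb8 call was lost without control shRNA array 1 (0.19), Smo shRNA array 2 (0.18) or Smo shRNA array 3 (0.13).

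On the lower side, Ndufv3, a small subunit at the NADH-binding tip, stood at 10.37, 10.36 and 10.45 in Smo shRNA cells, against 10.72, 10.62 and 10.81 in control shRNA cells. The groups did not overlap, and all 9 probe sets were on the lower side (difference -0.33, SE 0.06, limma adjusted p = 0.000284). Ndufa2, a thioredoxin-like subunit of the same tip, stood at 11.92, 11.86 and 11.94 in Smo shRNA cells, against 12.18, 12.07 and 12.13 in control shRNA cells. All 5 of its probe sets fell at the threshold (difference -0.22, SE 0.04, limma adjusted p = 0.00028). Ndufb9, a membrane arm subunit of the LYR protein family, was lower by a smaller amount, at 12.37, 12.33 and 12.40 in Smo shRNA cells, against 12.54, 12.48 and 12.49 in control shRNA cells (difference -0.14, SE 0.03, limma adjusted p = 0.00278). Each of these 3 genes had every Smo shRNA array below every control array.

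The remaining called subunits of complex I, named after their values were seen, were Ndufa5 and Ndufab1 on the higher side and Ndufc2 on the lower side. Ndufa5, which lies beside the ubiquinone site, stood at 9.36, 9.40 and 10.03 in Smo shRNA cells, against 9.31, 9.08 and 9.22 in control shRNA cells. Smo shRNA array 3 stood far above the other 2, which were only just above the highest control array. The Ndufa5 difference was 0.39 (SE 0.14, limma adjusted p = 0.034) and 0.17 without that array (adjusted p = 0.139). The calls of Ndufab1 (0.20) and Ndufc2 (-0.12) were lost in 6 and 5 of the 6 fits without 1 array, among them the fit without Smo shRNA array 3, in which Ndufab1 was at 0.15 and Ndufc2 at -0.10. Nearest to 0 with values on either side were Ndufb10 (-0.01) and Ndufs6 (0.02), a zinc-binding subunit.

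In complex II the 4 subunits did not move together. Sdha, the flavoprotein that oxidises succinate, stood at 12.38, 12.42 and 12.33 in Smo shRNA cells, against 12.12, 12.07 and 12.17 in control shRNA cells. The arrays were well separated, and 17 of 20 probe sets were on the higher side, 13 of them past the threshold (difference 0.26, SE 0.04, limma adjusted p = 4.54e-05). Sdhb, the iron-sulfur partner of Sdha, stood at 10.43, 10.46 and 10.44 in Smo shRNA cells, against 10.49, 10.33 and 10.50 in control shRNA cells. All 3 Smo shRNA values lay inside the range of the control values, with a difference of 0.00 (SE 0.05, limma adjusted p = 0.997).

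The membrane anchors of complex II, which hold the haem and the ubiquinone site, went in opposite directions. Sdhd stood at 11.72, 11.68 and 11.64 in Smo shRNA cells, against 11.49, 11.41 and 11.50 in control shRNA cells, and was higher by 0.22 (SE 0.04, limma adjusted p = 0.000581). Sdhc stood at 11.56, 11.52 and 11.46 in Smo shRNA cells, against 11.69, 11.66 and 11.63 in control shRNA cells, and was lower by a difference of -0.15 (SE 0.04, limma adjusted p = 0.0078). Neither pair of groups overlapped. The Sdhd call was lost without Smo shRNA array 1 (0.17) or 2 (0.16), and the Sdhc call without control shRNA array 1 (-0.14) or Smo shRNA array 2 (-0.14).

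In complex III the pair of large core proteins rose and no member fell. Uqcrc1 stood at 12.49, 12.43 and 12.48 in Smo shRNA cells, against 12.24, 12.21 and 12.24 in control shRNA cells. The spread within each line was small beside the gap between them (difference 0.24, SE 0.03, limma adjusted p = 1.82e-05), and 20 of 21 probe sets were on the higher side. Uqcrc2 stood at 12.61, 12.58 and 12.51 in Smo shRNA cells, against 12.40, 12.31 and 12.42 in control shRNA cells. Its groups were also apart (difference 0.19, SE 0.04, limma adjusted p = 0.000788), with 17 of 18 probe sets on the higher side.

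The other 6 members of complex III did not pass. Uqcrfs1, the Rieske iron-sulfur protein, stood at 9.44, 9.51 and 9.80 in Smo shRNA cells, against 9.51, 9.41 and 9.43 in control shRNA cells. The values overlapped and Smo shRNA array 3 alone stood above them (difference 0.13, SE 0.08, limma adjusted p = 0.244). The small subunits had differences of 0.13 (Uqcr10), 0.04 (Uqcrb), -0.12 (Uqcrh, the hinge protein), -0.14 (Uqcrq) and -0.15 (Uqcr11). The Uqcrq groups did not overlap, and with a stricter brightness filter Uqcrq passed on the lower side (limma adjusted p = 0.00119). Uqcr11 stood at 9.38, 9.39 and 9.72 in Smo shRNA cells, against 9.76, 9.50 and 9.68 in control shRNA cells, and its difference was -0.30 without Smo shRNA array 3 (limma adjusted p = 0.0214). Cytochrome c1 itself, Cyc1, falls outside the naming rule and was higher by 0.28, at 12.20 ± 0.07 in Smo shRNA cells and 11.92 ± 0.01 in control shRNA cells (SD, n = 3 each, SE 0.04, limma adjusted p = 3.44e-05).

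Complex IV was the complex with the lowest median, -0.04, and 11 of its 15 tested members had a negative difference, though only 2 fell at the threshold and 1 rose. Without control shRNA array 1 this median was 0.00. Cox4i1, the general isoform of a regulatory subunit, stood at 11.35, 11.45 and 11.46 in Smo shRNA cells, against 11.64, 11.54 and 11.59 in control shRNA cells. Its groups did not overlap (difference -0.17, SE 0.04, limma adjusted p = 0.00522), and 3 of 5 probe sets were on the lower side. The Cox4i1 call was lost without control shRNA array 1 (-0.13) or 3 (-0.17). The difference was -0.10 with the mean of probe sets in place of median polish (adjusted p = 0.238).

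Cox5a, a subunit on the matrix face of complex IV, stood at 11.39, 11.47 and 11.48 in Smo shRNA cells, against 11.37, 11.15 and 11.33 in control shRNA cells. The lowest Smo shRNA array was barely above the highest control array, and control shRNA array 2 was the lowest of all (difference 0.17, SE 0.05, limma adjusted p = 0.0259). The Cox5a call was lost without any 1 of the 6 arrays, with a difference of 0.07 without control shRNA array 2. With the mean of probe sets the Cox5a difference was 0.39 (limma adjusted p = 0.0419).

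Cox6c, a small transmembrane subunit, stood at 8.42, 8.40 and 8.53 in Smo shRNA cells, against 8.80, 8.77 and 8.83 in control shRNA cells. The groups were apart in every array (difference -0.35, SE 0.06, limma adjusted p = 0.000593) and all 10 probe sets were on the lower side, 4 of them at the threshold. The brightest Cox6c probe set differed least. It read 13.76, 13.99 and 13.99 in Smo shRNA cells, against 13.94, 13.98 and 13.90 in control shRNA cells, a difference of -0.03. With a stricter brightness filter the Cox6c difference was -0.09 (limma adjusted p = 0.254). A further 6 probe sets that carry the symbol of a second, Cox6c-like locus were left out, and signal from such copies in those used cannot be told apart from Cox6c.

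Apart from Cox4i1, the isoforms that differ between tissues did not part the lines. Cox4i2, the isoform known from lung, stood at 8.14, 8.32 and 8.44 in Smo shRNA cells, against 8.33, 8.29 and 8.22 in control shRNA cells, with a difference of 0.02 (SE 0.08, limma adjusted p = 0.871). Among general forms, the differences were -0.01 for Cox6a1, -0.06 for Cox6b1, -0.12 for Cox7a2, 0.08 for Cox7a2l, which joins complexes III and IV, -0.04 for Cox7b and -0.01 for Cox8a. Among the forms known from heart and muscle or testis they were -0.08 for Cox6a2, 0.13 for Cox6b2 and -0.12 for Cox8b. Ndufa4, named for complex I but a subunit of complex IV, had a difference of -0.01 and its relative Ndufa4l2 one of -0.09. None of these 12 genes passed, and of the 58 members that did not pass, 27 changed sign in at least 1 alternative setting. Among the 12, Cox4i2, Cox6a2, Cox6b2, Cox8b and Ndufa4l2 had mean levels of 7.28 to 8.29. The blood cell and endothelial markers spanned 7.09 to 8.36. Whether these dim forms were expressed was not tested, so their differences do not show expressed genes left unchanged.

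In complex V a single subunit gave the widest difference of all tested subunits. Atp5c1 encodes the gamma subunit, the shaft that turns inside the catalytic head. It stood at 10.73, 10.70 and 10.87 in Smo shRNA cells, against 11.45, 11.37 and 11.52 in control shRNA cells. Every Smo shRNA array was below every control array by more than the range within either line, a 1.61-fold lower level (difference -0.68, SE 0.05, limma adjusted p = 2.64e-07). Its difference lay between -0.73 and -0.60 under all 14 alternatives.

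All 12 Atp5c1 probe sets were on the lower side, by -0.99 to -0.10, and 8 passed on their own. The brightest read 13.00, 13.01 and 13.02 in Smo shRNA cells, against 13.55, 13.60 and 13.64 in control shRNA cells (difference -0.59, SE 0.04, limma adjusted p = 2.26e-08 over probe sets). In 2 dim probe sets Smo shRNA array 3 departed from its line. One Atp5c1 probe set of the pair read 6.47, 6.53 and 9.04 in Smo shRNA cells, against 8.36, 7.35 and 7.99 in control shRNA cells. The other Atp5c1 probe set read 6.55, 6.75 and 9.57 in Smo shRNA cells, against 8.40, 8.07 and 8.26 in control shRNA cells. In both, that array was the highest of the 6 and the other Smo shRNA arrays the lowest.

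**Figure D4:**
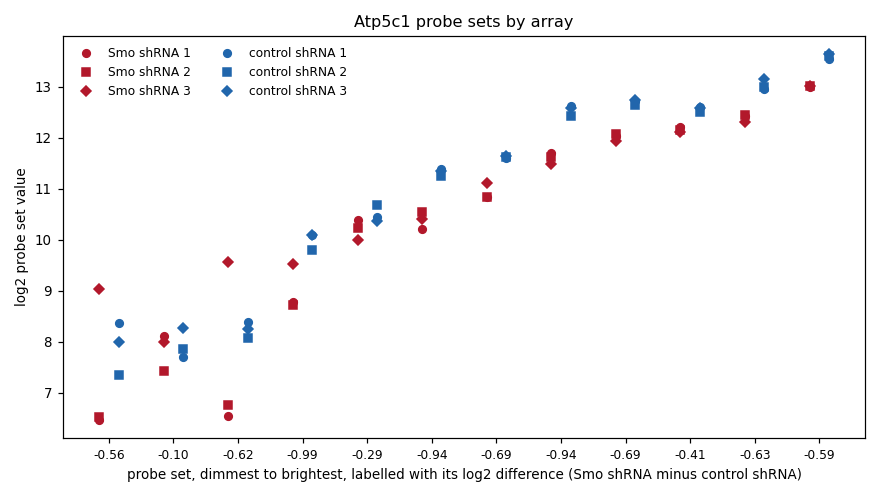
Log2 value of the 12 usable Atp5c1 probe sets in each Smo shRNA array (red) and control shRNA array (blue), ordered from the dimmest to the brightest and labelled with the difference of each. The Smo shRNA arrays lie below the control arrays in the brighter probe sets, and Smo shRNA array 3 (red diamonds) stands at 9.04 and 9.57 in 2 of the dim ones.

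The catalytic partners of Atp5c1 did not share its size or direction. Atp5a1, the alpha subunit, stood at 12.49, 12.48 and 12.44 in Smo shRNA cells, against 12.41, 12.33 and 12.39 in control shRNA cells. The groups were barely apart (difference 0.09, SE 0.03, limma adjusted p = 0.0332), and the Atp5a1 call was kept in 1 of the 6 fits without an array. Atp5b, the beta subunit that makes ATP, stood at 13.83, 13.84 and 13.84 in Smo shRNA cells, against 13.81, 13.78 and 13.80 in control shRNA cells. This difference of 0.04 did not pass (SE 0.02, limma adjusted p = 0.0753) with all arrays, and did without Smo shRNA array 1 (0.05) or 3 (0.05). The last members of the head had differences of 0.02 (Atp5d, the delta subunit) and -0.14 (Atp5e, the epsilon subunit).

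The c ring, which turns in the membrane as protons pass, is built of 1 mature protein encoded by 3 genes, and these gave differing values. Atp5g1 stood at 8.87, 8.87 and 8.85 in Smo shRNA cells, against 8.67, 8.78 and 8.62 in control shRNA cells (difference 0.17, SE 0.06, limma adjusted p = 0.0489). Atp5g2 stood at 13.14, 13.23 and 13.06 in Smo shRNA cells, against 13.29, 13.23 and 13.24 in control shRNA cells (difference -0.11, SE 0.04, limma adjusted p = 0.0263). Its groups touched, and the calls of Atp5g1 and Atp5g2 were each kept in 1 of the 6 fits without an array. The Atp5g2 difference was -0.07 without Smo shRNA array 3 and -0.05 with the mean of probe sets (limma adjusted p = 0.217 and 0.321). Atp5g3 had a difference of -0.01. Genes with such close copies can carry each other's signal in shared probes.

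The peripheral stalk, which keeps the head from turning, had no called member, with differences of 0.22 (Atp5h), 0.09 (Atp5pb), -0.07 (Atp5o) and -0.12 (Atp5j). Without Smo shRNA array 3 the Atp5h difference was 0.08, and with a stricter brightness filter it was 0.25 and passed (limma adjusted p = 0.0162). The Atp5o difference ran between -0.07 and 0.25 over the alternative settings and passed in none. Of the 5 small membrane subunits, Atp5mpl rose. It stood at 9.48, 9.64 and 9.61 in Smo shRNA cells, against 9.44, 9.35 and 9.36 in control shRNA cells (difference 0.19, SE 0.06, limma adjusted p = 0.0215). The Atp5mpl groups were only just apart, and its call was kept in 2 of the 6 fits without an array. The Atp5mpl difference was 0.12 without Smo shRNA array 3 (limma adjusted p = 0.112) and 0.13 with no brightness filter (adjusted p = 0.0895). It was 0.32 with a stricter filter and 0.31 with the mean of probe sets, and passed in both. Atp5md, a subunit linked to ATP synthase dimers, had a difference of 0.02. Over all of complex V, 17 members were tested, 3 rose, 2 fell and the median was 0.02, or -0.02 without control shRNA array 2.

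The assembly factors, which belong to the rule by name but not to the finished enzymes, held the widest positive differences. Of 12 tested, 5 rose, 3 fell and 4 did not pass. Beside 38.6% of all genes, 66.7% of these 12 factors were called. Their median was 0.15, and 0.05 without control shRNA array 2, 0.04 without Smo shRNA array 3 and -0.02 over those with at least 5 usable probe sets. Sdhaf3, which helps to mature the iron-sulfur subunit of complex II, stood at 9.88, 9.94 and 9.90 in Smo shRNA cells, against 9.28, 9.00 and 9.19 in control shRNA cells. It was 1.68-fold higher (difference 0.75, SE 0.07, limma adjusted p = 1.44e-06), a gap far wider than the spread within either line. Its value rests on 3 probe sets, all of them called higher.

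Ndufaf6, needed early in the assembly of complex I, stood at 8.28, 8.12 and 8.39 in Smo shRNA cells, against 7.68, 7.68 and 7.67 in control shRNA cells. The control arrays were almost equal and all Smo shRNA arrays above them (difference 0.59, SE 0.08, limma adjusted p = 3.91e-05), in 8 of 8 probe sets. Ndufaf4, which acts at the ubiquinone-binding part of complex I, stood at 9.85, 9.93 and 9.99 in Smo shRNA cells, against 9.44, 9.29 and 9.43 in control shRNA cells. The groups were again apart, in 12 of 12 probe sets (difference 0.54, SE 0.06, limma adjusted p = 1.03e-05). Ndufaf8 (0.29) and Ndufaf2 (0.25) were also higher, and those calls were kept in 2 and 1 of the 6 fits without an array. Without Smo shRNA array 3, Ndufaf8 was at 0.19 (limma adjusted p = 0.0822) and Ndufaf2 at 0.18 (adjusted p = 0.209), and without control shRNA array 2 Ndufaf2 was at 0.16.

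The partner that acts with Ndufaf4, Ndufaf3, was lower. It stood at 9.51, 9.54 and 9.39 in Smo shRNA cells, against 9.86, 9.53 and 9.87 in control shRNA cells (difference -0.27, SE 0.08, limma adjusted p = 0.0185). Control shRNA array 2 fell among the Smo shRNA arrays, and of the 6 fits without an array only the one without that array kept the Ndufaf3 call, at -0.42. Sdhaf2, which attaches the flavin to Sdha, stood at 10.27, 10.22 and 10.31 in Smo shRNA cells, against 10.58, 10.41 and 10.57 in control shRNA cells (difference -0.25, SE 0.06, limma adjusted p = 0.00268). Ndufaf7, a methyltransferase that acts on a complex I core subunit, stood at 9.57, 9.60 and 9.66 in Smo shRNA cells, against 9.92, 9.72 and 9.88 in control shRNA cells (difference -0.23, SE 0.06, limma adjusted p = 0.00873). Neither of the last pair overlapped between lines, and each kept its call in 3 of the 6 fits without an array. The Sdhaf2 call was lost without control shRNA array 1 (-0.19), control shRNA array 3 (-0.16) or Smo shRNA array 2 (-0.19), and the Ndufaf7 call without control shRNA array 1 (-0.19), control shRNA array 3 (-0.21) or Smo shRNA array 1 (-0.21). Ndufaf1 (-0.11) and Sdhaf4 (-0.02) did not pass.

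Of the 3 genes matched by an older name only, Dmac2l (older name Atp5s) was higher by 0.36 (SE 0.11, limma adjusted p = 0.0178), a call lost in all 6 fits without 1 array. The Dmac2l difference was 0.20 without control shRNA array 2 and 0.22 with a stricter brightness filter (limma adjusted p = 0.0621). Dmac2 (-0.10) and Emc8 (0.06) did not pass. A further 8 members had fewer than 3 usable probe sets and were not tested with the rest, namely Ndufa1, Ndufa11b, Ndufb4, Ndufc1, Cox5b, Cox7b2, Cox7c and Cox8c. With 1 usable probe set allowed, 7 of them gave differences of -0.12 to 0.19 and none passed, and Cox7b2 had no usable probe set.

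The rest of the mitochondrial program gives a setting for these counts. These lists are described by counts and medians, beside the 21.2% of all genes that rose, the 17.4% that fell and the median of 0.01 over all genes. Of 14 further chain subunits, Cyc1 and those encoded in mitochondrial DNA, 6 were tested. Cyc1 rose, mt-Nd1 fell slightly, at 14.32 ± 0.07 in Smo shRNA cells and 14.41 ± 0.02 in control shRNA cells (SD, n = 3 each, difference -0.09, limma adjusted p = 0.013), and 4 did not pass. The mt-Nd1 call was lost in all 6 fits without 1 array, with differences between -0.10 and -0.04. Of 14 tested genes for cytochrome c and coenzyme Q, the mobile carriers, 7 rose and 3 fell. Coq6 (0.48) and Coq5 (0.38), enzymes of coenzyme Q synthesis, were on the higher side, and Coq8a (-0.41) and Coq10a (-0.20) on the lower side. The Coq8a difference was -0.10 with a stricter brightness filter (limma adjusted p = 0.274) and -0.25 without Smo shRNA array 3, and its call was also lost without control shRNA array 1 (-0.28) or Smo shRNA array 1 (-0.37). The Coq10a call was lost in 4 of the 6 fits without an array, with a difference of -0.13 without Smo shRNA array 2. Of 37 further assembly factors, 18 rose and 5 fell, with a median of 0.12. Examples are Atpaf2, for the head of ATP synthase (0.44), and Cox10, for the haem of complex IV (0.48), against Cox20 (-0.37) and Cox19 (-0.33), whose call was lost without control shRNA array 1 (-0.27).

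Among 18 tested regulators of mitochondrial biogenesis, 11 rose and 2 fell. Ppargc1a, a coactivator of nuclear genes for mitochondrial proteins, was 5.43-fold lower. It stood at 7.84, 7.80 and 8.09 in Smo shRNA cells, against 10.37, 10.29 and 10.39 in control shRNA cells (difference -2.44, SE 0.08, limma adjusted p = 5.62e-11). Its relative Pprc1 was higher by 0.45, Lrpprc, which stabilises mitochondrial messengers, by 0.69, the mitochondrial DNA-binding factor Tfam by 0.42 and Nrf1 by 0.21. Gabpa, an ETS factor of mitochondrial promoters, was lower (-0.16, limma adjusted p = 0.0204), a call kept in 2 of the 6 fits without an array. The tested members, assembly factors included, stood at a median of 0.03 in cells whose Ppargc1a level was far lower and whose Nrf1 and Tfam levels were higher. A link between these regulators and the members was not tested.

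Of 75 tested mitochondrial ribosomal protein genes, 35 rose and 5 fell, with a median of 0.14. Mrps22 (0.59) and Mrpl38 (0.48) were higher, and Mrpl43 (-0.30) and Mrps6 (-0.18) lower. Of 17 citrate cycle and pyruvate dehydrogenase genes, 11 rose and 3 fell, with Dld (0.65) and Ogdh (0.29) among those that rose and Pdha1 (-0.13) and Idh3b (-0.12) among those that fell. The calls of Pdha1 and Idh3b were lost in 3 and 4 of the 6 fits without an array. Of 16 import and carrier genes, 7 rose, such as Tomm70a (0.44) and Tomm5 (0.41), and 2 fell, Slc25a3 (-0.14) and Timm17a (-0.16). The calls of Slc25a3 and Timm17a were lost in 4 and 5 of these 6 fits, with differences as small as -0.09 and -0.13.

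Fatty acid oxidation genes, which feed electrons into the chain, held 4 higher and 5 lower of 19, with a median of -0.05. Acadl (0.35) and Hadh (0.20) were higher and Cpt1c (-0.35) and Slc25a20 (-0.27) lower, the last a call lost in 4 of the 6 fits without an array. Of 19 glycolysis genes, 5 rose and 3 fell. The lactate and pyruvate transporter Slc16a1 was higher by 1.28 and hexokinase Hk2 by 0.77, and Ldhb (-0.53) and Eno1 (-0.42) were lower. The Eno1 call was lost without Smo shRNA array 3 (-0.30, limma adjusted p = 0.0535). No difference between any of these lists and the chain members was tested.

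**Figure D5:**
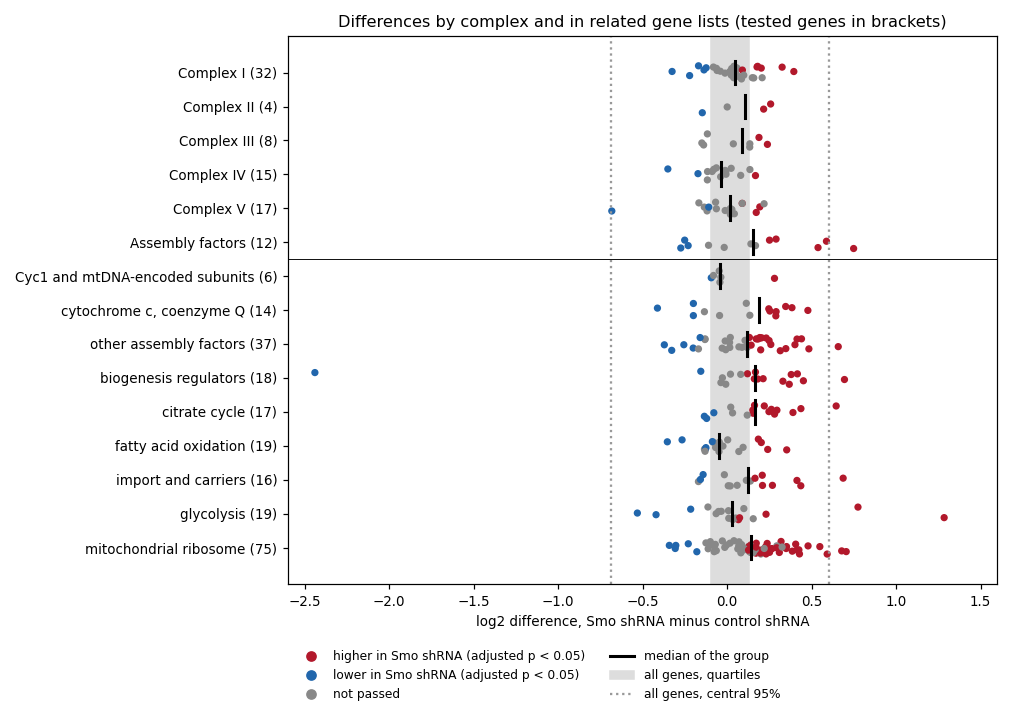
Each point is a tested gene at its log2 difference (Smo shRNA minus control shRNA), in rows for complexes I to V and the assembly factors (above the line) and for related lists (below it), with the number tested in brackets, a black bar at the row's median, and the quartiles and central 95% of all genes as a grey band and dotted lines. Complexes I to V cluster about the grey band, with Atp5c1 at -0.68 near the lower dotted line, and Ppargc1a stands alone at -2.44.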

How the data were processed

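The deposited table holds 1256831 exon probe sets in 6 arrays as log2 values made by the authors. The scale was read from the values (0 to 15.14), and the array medians lay at 6.56 to 6.59. How the authors normalized the arrays is a step not given in the sources used here. Every array read 0 in 20744 rows, none with a gene name. The platform annotation gave 318760 probe sets 1 symbol, and the 6684 with several were left out. Symbols were updated through RefSeq (GRCm38.p6) names.

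A probe set was used when its mean over the arrays reached the overall median (6.56), which left 245574. Tukey median polish joined those of each gene with at least 3, array by array. Limma 3.58.1, run in R 4.3.3, compared the groups over the resulting 16923 genes (variance trend, no replicate block, two-sided, Benjamini-Hochberg adjustment over all genes, threshold 0.05). The calculation was tested on simulated data. Folds from hybridisation understate the changes of dim genes, and the number of arrays limits the precision. Promoter letters were searched with Python 3.11.15.

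The members and lists were chosen with earlier results of these data known. Named genes are Smo, core subunits, isoform pairs, up to 3 called members per complex and direction with the smallest adjusted p, up to 2 nearest to no difference, and up to 2 genes per direction of each related list. Ppargc1a, Nrf1, Gabpa, Tfam and Cyc1 were always named, and other members were named after their values were seen. Ndufa4 and Ndufa4l2 were placed in complex IV. Mitochondrially encoded genes were matched through the annotation's own names for them. Alternatives were no filter and a stricter filter on dim probe sets (75th percentile, 8.22), at least 1 or 5 probe sets, the mean of probe sets, repeated quantile normalization, no variance trend, the replicate number as a block, and each array left out.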

Additional observations from a re-analysis of the deposited data

How the results depend on the processing

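No called member changed its sign under the 14 alternatives, and 27 of the 58 that did not pass changed theirs in at least 1. The medians of complexes IV and V, the assembly factors, all members and all genes lay on both sides of 0 among the settings. Members that rose and fell numbered 17 and 11 without the brightness filter, 21 and 14 with a stricter one, 16 and 11 with at least 1 probe set, 18 and 13 with at least 5, 19 and 10 with the mean of probe sets, 21 and 14 after repeated quantile normalization and 14 and 9 without the variance trend. By complex, the counts that moved by over 1.5 times were 1 higher and 1 lower in complex V without the filter; 1 lower in complex III and 1 in complex IV with the stricter filter; 0 higher in complex IV and 1 lower in complex V with at least 1 probe set; 3 higher assembly factors, with a median of -0.017, at 5 or more probe sets; 1 lower each in complexes IV and V with the mean of probe sets; and 3 lower in complex I, 0 higher in complex IV and 1 lower in complex V without the variance trend. The alternative with at least 5 probe sets tests fewer genes, and the cause of the other moves was not tested.

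Leaving out 1 array, with fewer samples in each fit, gave 2672 to 2918 genes higher and 2089 to 2786 lower, and 10 to 12 members higher and 5 to 12 lower. By complex the ranges were 2 to 3 higher and 3 to 4 lower in I, 1 to 2 and 0 to 1 in II, 2 to 3 and 0 to 1 in III, 0 and 1 to 2 in IV, 0 to 2 and 1 to 3 in V, and 3 to 5 and 0 to 3 among assembly factors. The medians ran from 0.010 to 0.11 in complex III and from 0.042 to 0.24 among assembly factors in these fits.

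Arrays of the same number in the 2 lines correlated in their deviations at 0.08, 0.10 and 0.39, so not every pair passed 0.1. Smo shRNA array 1 correlated best with control shRNA array 2 (0.31). Smo shRNA arrays 2 and 3 correlated best with the control array of their own number. Deviations from a mean of 3 arrays constrain each other, so these values cannot settle whether the numbers pair the samples. With the replicate number as a block, 22 members were higher and 13 lower. Signal close to background limits the dim members, and 8 of 99 members had too few usable probe sets.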
